A study of Mus musculus with 2 samples.

Results

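The distal miRNA cluster of the imprinted Dlk1-Dio3 region, which runs from Mir379 past Mir410 on mouse chromosome 12, was measured in the embryonic forebrain by small RNA sequencing. Its genes were taken by position, as every miRNA gene of the deposited tables that GENCODE places on the plus strand of the cluster's stretch of chr12, and by no measured value. They numbered 34 of the 1973 miRNA genes in the tables. GENCODE M21 places 5 more on this stretch, Mir299a, Mir380, Mir376b, Mir376a and Mir409, which were not analysed here as genes. Counts at 4 of these positions, given at the end, equal 15.2% and 14.5% of the members' counts in replicates 1 and 2. Shares and ranks within the cluster are therefore among the 34 genes. The tissue was forebrain of B6NCrl embryos at 14.5 days of gestation, untreated and with no altered allele named in the labels, in 2 libraries numbered 1 and 2 as biological replicates. By their labels each came from 1 forebrain, taken on different days, yet the sex is given as pooled and the donor as the same for both. The spread between the libraries may therefore be partly technical. With 1 group there was no second condition to compare, so what follows gives levels, their spread over the 2 libraries, and how the libraries differed.

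The Dlk1-Dio3 region is expressed according to parent of origin. Its protein-coding genes are read from the paternal chromosome, and its non-coding genes, among them the miRNA genes described here, from the maternal one. The miRNA hairpins lie in a long chain of maternally expressed transcripts that ends in the non-coding gene Mirg, and they are cut out of it by Drosha and Dicer. Each hairpin can give a 5p and a 3p mature miRNA, which pairs with target transcripts mainly through its seed, the bases 2 to 8. The cluster is found in placental mammals and is best known in the brain, where several of its miRNAs act on dendrite growth, synapses and neuronal migration. Mice that lack the cluster have been described with impaired metabolic adaptation at birth and with altered anxiety and social behaviour.

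The mature sequences of the 12 most abundant members are shown because these genes carry nearly all the counts of the 34 genes. They come from RefSeq (GRCm38.p6, the same assembly as mm10), which held mature sequences for 33 of the 34 genes, and are written 5′ to 3′ with the seed in capitals. The table lists 1 arm only for Mir487b (no miR-487b-3p), Mir376c (no miR-376c-3p), Mir485 (no miR-485-5p) and Mir539 (no miR-539-3p), so arms and seeds are given for the listed sequences only. In order of level the 12 genes read as follows.
miR-487b-5p: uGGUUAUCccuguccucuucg
miR-411-5p: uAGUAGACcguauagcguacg
miR-411-3p: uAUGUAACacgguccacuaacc
miR-369-5p: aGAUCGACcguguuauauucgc
miR-369-3p: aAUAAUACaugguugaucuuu
miR-541-5p: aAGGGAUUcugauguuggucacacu
miR-541-3p: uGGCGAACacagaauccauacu
miR-382-5p: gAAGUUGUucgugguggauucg
miR-382-3p: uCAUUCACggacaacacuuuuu
miR-379-5p: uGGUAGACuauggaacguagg
miR-379-3p: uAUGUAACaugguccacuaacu
miR-381-5p: aGCGAGGUugcccuuuguauauu
miR-381-3p: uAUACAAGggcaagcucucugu
miR-1193-5p: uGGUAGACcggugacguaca
miR-1193-3p: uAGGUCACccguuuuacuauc
miR-134-5p: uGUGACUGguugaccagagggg
miR-134-3p: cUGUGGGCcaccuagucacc
miR-154-5p: uAGGUUAUccguguugccuucg
miR-154-3p: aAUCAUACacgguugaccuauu
miR-323-5p: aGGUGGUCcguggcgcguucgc
miR-323-3p: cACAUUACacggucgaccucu
miR-300-5p: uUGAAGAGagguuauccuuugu
miR-300-3p: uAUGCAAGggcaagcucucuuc
The deposited counts belong to the hairpin and do not separate its arms, so no level below says which of the 2 strands was present.

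The cluster held 320448 of 7080317 miRNA counts in replicate 1 and 396172 of 7946585 in replicate 2. That is 4.53% (95% exact binomial interval 4.51% to 4.54%, which covers counting error only) and 4.99% (4.97% to 5.00%), or 4.76% ± 0.325 (SD, n = 2). Levels are given as CPM, the counts per 1000000 miRNA counts of the library. A sequenced miRNA is read whole, so counts were not divided by length, and a ratio between 2 genes is a ratio of reads. Of the 34 genes, 31 were detected, meaning 10 or more counts in both libraries. All 34 genes had a median of 7.32 on the log2(CPM + 1) scale, against 0 over all 1973 genes, of which 399 (20.2%) were detected.

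Mir487b stood far above the other members. Replicate 1 had 20611 CPM of it and replicate 2 had 25770 CPM, or 23191 ± 3648 (SD, n = 2), which made it the gene with the 9th highest mean CPM in the tables. It held 45.5% of the cluster's counts in replicate 1 and 51.7% in replicate 2, more than the 4 genes that followed it together. The gene (ENSMUSG00000076219.1) lies at chr12:109727333-109727414 on mm10, upstream of the annotated start of Mirg. Its mean was 4.22-fold that of the next gene, and the ranges of the 2 genes did not overlap.

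Next came Mir411 at 5691 and 5312 CPM (5501 ± 268, SD, n = 2) and Mir369 at 4184 and 4494 CPM (4339 ± 219). Mir541 followed at 3254 and 2824 CPM and Mir382 at 2639 and 2854 CPM. The order of this last pair differed between the libraries, so the 2 genes cannot be ranked. Mir379, the first gene of the cluster, had 2008 and 1928 CPM, and Mir381 had 2015 and 1880 CPM, again in an order that differed between the libraries. These 7 genes, from Mir487b to Mir381, were the members above 1000 CPM and held 89.8% ± 0.793 of the cluster's counts.

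A gap of 2.81-fold separated Mir381 from the next gene. Mir1193 had 652 and 737 CPM, Mir134 had 606 and 651 CPM, and Mir154 had 643 and 563 CPM. Mir323 had 443 and 503 CPM, and Mir300 had 448 and 362 CPM. In both libraries the 12 highest genes were the same 12, and together they held 95.7% ± 0.424 of the cluster's counts (SD, n = 2). The other 19 detected genes fell gradually from 295 ± 22.5 CPM at Mir543 to 18.9 ± 2.01 CPM at Mir3072, with Mir544 and Mir1197 well below.

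In this middle range Mir543, Mir496a, Mir485, Mir494, Mir376c, Mir667 and Mir329 lay between 100 and 1000 CPM on average, and 12 detected genes lay under 100 CPM. Mir679 had 112 and 82.8 CPM, Mir668 had 80.8 and 78.9 CPM, Mir666 had 62.6 and 62.2 CPM, and Mir377 had 51.6 and 39.4 CPM. Mir666 and Mir668 gave nearly the same CPM in both libraries, while Mir679 and Mir377 were lower in replicate 2. Of the 30 pairs of neighbours in the order of level, 13 had overlapping ranges, so the order within the cluster is not resolved gene by gene. With 2 libraries, ranges that do not overlap do not settle an order either. Mir1193 in replicate 1 and Mir134 in replicate 2, for example, came as close as 651.5 and 651.2 CPM.

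**Figure D1:**
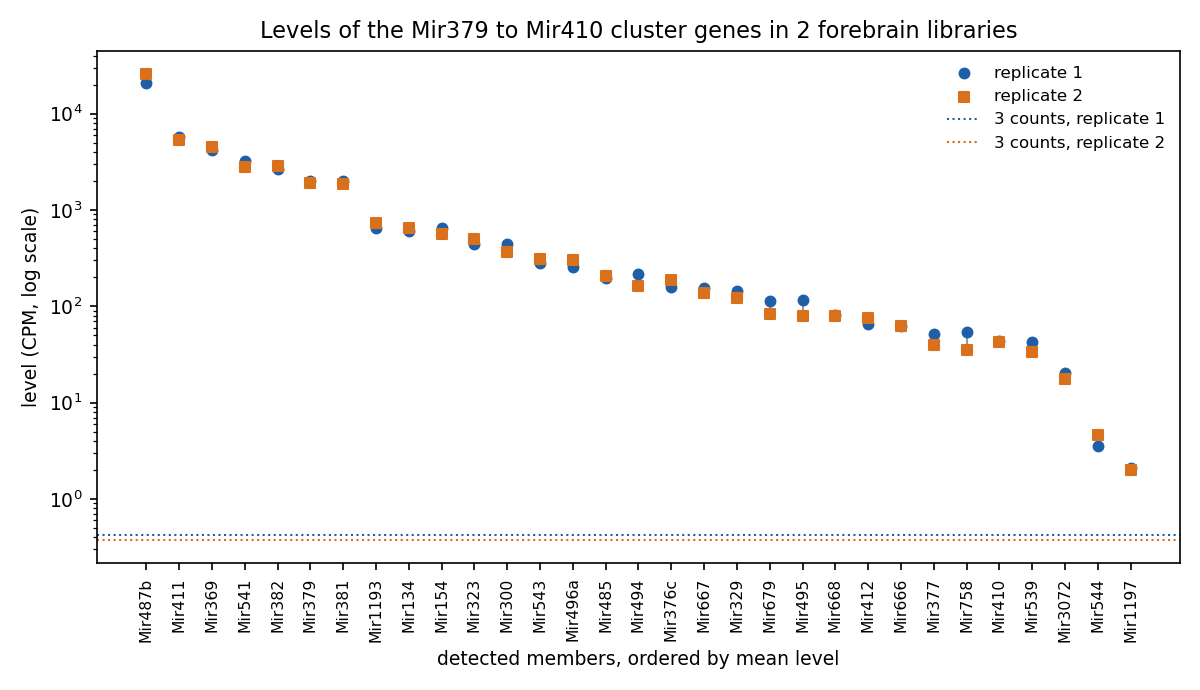
The 31 detected genes of the cluster, ordered by mean level, with the CPM of replicate 1 (circles) and replicate 2 (squares) on a log axis; dotted lines mark the CPM of 3 counts in each library. Mir487b lies highest at 20611 and 25770 CPM, 7 genes lie above 1000 CPM, and Mir544 and Mir1197 lie at the low end.

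Genes with known roles in neurons were spread over this range. Mir134, whose miRNA restrains dendritic spine growth through Limk1, stood at 629 ± 31.9 CPM (SD, n = 2). Mir379 and Mir329, which with Mir134 belong to the set needed for activity-dependent dendrite outgrowth, stood at 1968 ± 56.4 and 134 ± 16.2 CPM, so Mir379 had the more reads by more than 10-fold. Mir485, which acts on presynaptic Sv2a, had 197 and 204 CPM. Mir369, Mir496a and Mir543, which were described as jointly repressing N-cadherin in the developing cortex, had 4339 ± 219, 280 ± 30.0 and 295 ± 22.5 CPM, so most reads of that trio came from Mir369. All of these genes were detected in both libraries.

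Members that share a seed are given together because miRNAs with the same seed can bind the same sites. In each of the 5 pairs found, the ranges of the 2 genes over the libraries did not overlap. Among the 61 mature sequences of the table there were 56 seeds, and 5 seeds were shared, each by 2 genes. One of them joins the 3p arms of Mir379 and Mir411, whose 5p arms differ in the seed. These 3p sequences, shown above, are identical at 20 of 22 positions, with U10C and U22C from miR-379-3p to miR-411-3p, counted from the 5′ end. The genes of this pair together had 7699 and 7240 CPM in replicates 1 and 2. The 5p seed of Mir379 was in turn shared with Mir1193, whose level was 694 ± 60.5 CPM (SD, n = 2). The other 3 shared seeds were on the 5p side, or in the single mature form of Mir453, in genes of lower level.
miR-1197-5p: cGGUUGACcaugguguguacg
miR-758-5p: uGGUUGACcagagagcacacg
miR-453: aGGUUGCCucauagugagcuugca
miR-496a-5p: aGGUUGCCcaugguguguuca
miR-494-5p: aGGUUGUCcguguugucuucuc
miR-410-5p: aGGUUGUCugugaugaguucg
In the first pair Mir1197 had 2.12 and 2.01 CPM and Mir758 had 54.1 and 35.1 CPM. In the second, Mir453 had no counts and Mir496a had 258 and 301 CPM, and in the third Mir494 had 215 and 161 CPM and Mir410 had 43.9 and 42.2 CPM. In each of these 3 pairs 1 gene carried most of the reads, and no other mature miRNA in the RefSeq table had any of the 5 seeds.

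Other close relatives have different seeds. Mir300 and Mir381 have 3p sequences, shown above, that are identical at 19 of 22 positions, with G4A in the seed and U21G and C22U at the end, from miR-300-3p to miR-381-3p. Their genes stood at 405 ± 60.7 and 1948 ± 95.1 CPM (SD, n = 2), with ranges that did not overlap. The 3p sequences of Mir543 and Mir495 are identical at 18 of 22 positions and differ at U6A and U7A in the seed.
miR-543-3p: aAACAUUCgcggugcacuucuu
miR-495-3p: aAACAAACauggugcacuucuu
Mir543 had 279 and 311 CPM and Mir495 had 116 and 78.4 CPM, so Mir543 was the higher gene in both libraries. Of the 2 relatives, the one with more reads was thus the same in each library for both pairs.

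Because a read that fits several places was not assigned to a gene, the counts of near-identical hairpins can be too low. None of the 61 mature sequences occurred whole in another annotated miRNA gene. Stretches of 20 nt or more were shared with another gene by 4 hairpins. Mir411 and Mir758 share 21 nt with each other, Mir376c shares 31 nt with Mir376b, and Mir487b shares 20 nt with Mir376b, which was not analysed here. How many reads of these 4 genes were left unassigned was not tested. Without them the cluster's share was 1.86%, and Mir369 led the other 30 genes with 23.3% of their counts. The miR-376 transcripts are also known targets of adenosine-to-inosine editing in the brain, which changes the reads. Mir376c stood at 172 ± 20.2 CPM (SD, n = 2).

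At the low end, Mir3072, the last gene of the cluster, had 144 and 139 counts in replicates 1 and 2, Mir544 had 25 and 37, and Mir1197 had 15 and 16. From Mir487b down to Mir1197 the detected genes covered an 11225-fold range of mean CPM. The other 3 members were not detected. Gm27379, a gene model, had 0 and 2 counts, and Mir654 and Mir453 had none in either library. For these last 2 the limit that no count allows, the value of 3 counts, was 0.424 CPM for replicate 1 and 0.378 CPM for replicate 2, counting error only. Neither hairpin shares 20 nt with another gene. Their absence from the counts therefore holds at a depth at which Mir1197, with 15 counts or more, was still seen in both libraries.

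Level did not follow position. The cluster spans 38.9 kb, from Mir379 at chr12:109709060-109709125 to Mir3072 at chr12:109747878-109747960. The annotation starts Mirg between Mir544 and Mir382, which leaves 21 members in front of the gene and 13 inside it. Of those 13, 4 lie in exons, 4 in introns and 5 across an exon end. Detection was alike, with 19 of 21 genes in front of Mirg and 12 of 13 inside. The detected genes had medians of 7.43 in front of Mirg and 7.89 inside on the log2(CPM + 1) scale, and the highest gene of each part was Mir487b and Mir369. The front part held 3.55% ± 0.318 of all miRNA counts and the part inside Mirg 1.21% ± 0.00714 (SD, n = 2), and 65.4% of the front part was Mir487b.

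Neighbours on the chromosome were often far apart in level. Mir487b lies 436 bases behind Mir381 and 714 bases ahead of Mir539, which had 42.5 and 33.9 CPM. Mir369 at chr12:109743418-109743496 lies between Mir412, 49 bases before it at 66.0 and 75.8 CPM, and Mir410, 218 bases after it at 43.9 and 42.2 CPM. Mir487b and Mir369 were thus each followed within less than 1000 bases by a hairpin with far fewer reads, whereas Mir379 and Mir411, 1049 bases apart, were both above 1000 CPM. Pairs were taken among detected members, so some have an unanalysed hairpin between them, such as Mir409 between Mir541 and Mir412. Over 30 such pairs of neighbouring detected genes the median difference was 2.44 log2 units, and over all pairs of detected genes it was 2.84. For the 10 pairs of neighbours at most 500 bases apart it was 3.12. As a description over 31 genes that share 2 libraries, Spearman's rho of level was -0.08 with position, -0.15 with the GC content of the hairpin and -0.05 with its length.

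**Figure D2:**
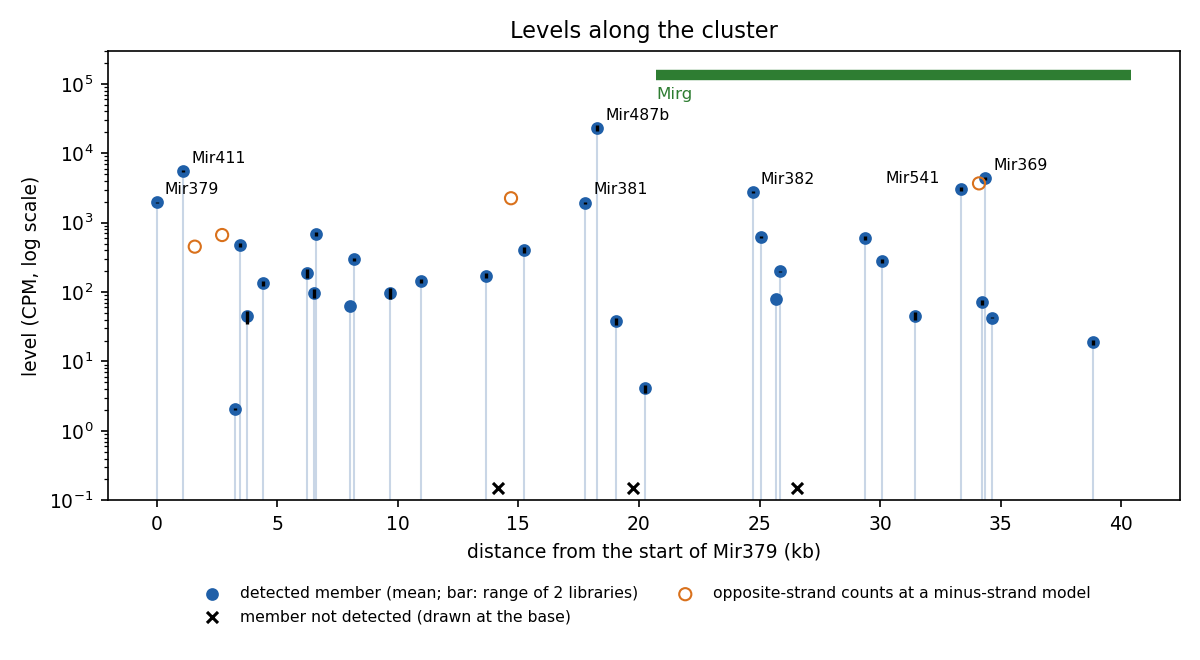
Level in CPM (log axis) against the distance from the start of Mir379 in kb, with means as filled circles, the range of both libraries as black bars, undetected members as crosses at the base, opposite-strand counts at minus-strand gene models as open circles, and the span of Mirg as a bar. The 7 members above 1000 CPM are named: Mir379 and Mir411 lie at the start, Mir381 and Mir487b just in front of Mirg, and Mir382, Mir541 and Mir369 inside it, with members of lower level between them.

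Among the plus-strand miRNA genes of the deposited tables, the cluster was set off on both sides. The nearest of these before Mir379 is Mir882, 26.8 kb away, with no count, and the nearest detected one is Mir370, 90.7 kb away, at 464 CPM. After Mir3072 the next of these is Gm27299, 926 kb away, with no count. Genes on the minus strand, and genes that the tables do not hold, were left out of this search and may lie nearer.

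The hairpins of the cluster also share short stretches. The letters TACTTG, searched on the strand of the gene only and chosen after the hairpins had been looked at, occurred in 10 of the 34 hairpins (29.4%), in 0 of 19 other plus-strand miRNA hairpins of the region, and in 2.32% of 2202 annotated mouse miRNA genes, whose lengths vary. AGTATC, which was searched in the same way, occurred in 6 members and 1.86% of all, and both together in 4 of them, out of 5 genes in the whole annotation. Detected members with TACTTG had a median level of 8.89 on the log2(CPM + 1) scale and those without it 7.14. This is a description of sequence similarity within the cluster and was not tested against level.

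Between the libraries the members differed little. Levels correlated with Pearson's r of 0.996 on the log2(CPM + 1) scale and Spearman's rho of 0.994 across 31 detected genes, which are not independent replicates. The detected members lay a median of 1.15-fold apart, against 1.17-fold for all 399 detected genes, and 30 of 31 were within 1.5-fold, against 359 of all 399. Their median log2 ratio, replicate 2 over replicate 1, was -0.06 with 19 genes lower and 12 higher in replicate 2, beside -0.09 for all detected genes. The sign of the members' median turned with scaling, to 0.020 with TMM factors and 0.051 with median-of-ratios factors. The standard deviation of these ratios was 0.26 over members and 0.38 over all detected genes.

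Each gene was also tested against the rest of the miRNA counts with Fisher's exact test, adjusted over the 737 genes with a count in either library. This test compares the 2 libraries and knows counting error only. Of 32 members tested, 14 passed with higher CPM in replicate 1, where 17% of all tested genes passed, and 9 with higher CPM in replicate 2, where 9.36% of all passed. Counts this deep let small differences pass. Among genes at a mean of 100 CPM or more, 155 of 192 genes passed (80.7%), and 18 of 19 members did. No member passed with at least a 2-fold difference, where 0.814% of all tested genes passed toward replicate 1 and 0.678% toward replicate 2. With at least a 1.5-fold difference, 2.04% of the tested genes passed toward replicate 1 and 1.49% toward replicate 2, and 1 member did.

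That member was Mir758, at 54.1 and 35.1 CPM (383 and 279 counts, log2 ratio -0.62, Fisher's exact test, Benjamini-Hochberg adjusted p = 2.12e-07). Its hairpin is 1 of the 4 with a shared stretch. Mir495 came next, with 116 and 78.4 CPM (log2 ratio -0.56, Fisher's exact test, Benjamini-Hochberg adjusted p = 1.68e-12). Toward replicate 2, the gene with the widest gap among those that passed was Mir487b, at a log2 ratio of 0.32 or 1.25-fold, a gap that 139 of the 399 detected genes (34.8%) reached or exceeded. Its adjusted p was too small for the software to hold. The sum of the cluster moved with Mir487b. All members together had 45259 and 49854 CPM, a ratio of 1.10, and without Mir487b the sums were 24648 and 24084 CPM, a ratio of 0.977. That ratio is on the total-count scale, and with TMM factors, median-of-ratios factors and totals without Mir99a it was 1.03, 1.05 and 1.03.

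How calls divided between the directions depended on scaling. The split of 14 and 9 became 9 and 10 with TMM factors and 8 and 12 with median-of-ratios factors. How many of all tested genes passed under these factors was not counted. The new splits are therefore not read as particular to the members. These scalings moved every log2 ratio up by 0.08 and 0.11. The 9 genes called higher in replicate 2 kept that call in both, and Mir379 turned from replicate 1 to replicate 2 with median-of-ratios factors. The common biological coefficient of variation between the libraries, estimated by edgeR over 445 genes, was 15.1%. The libraries were also collected on different days, and the part of the day in these differences cannot be told apart from the rest.

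**Figure D3:**
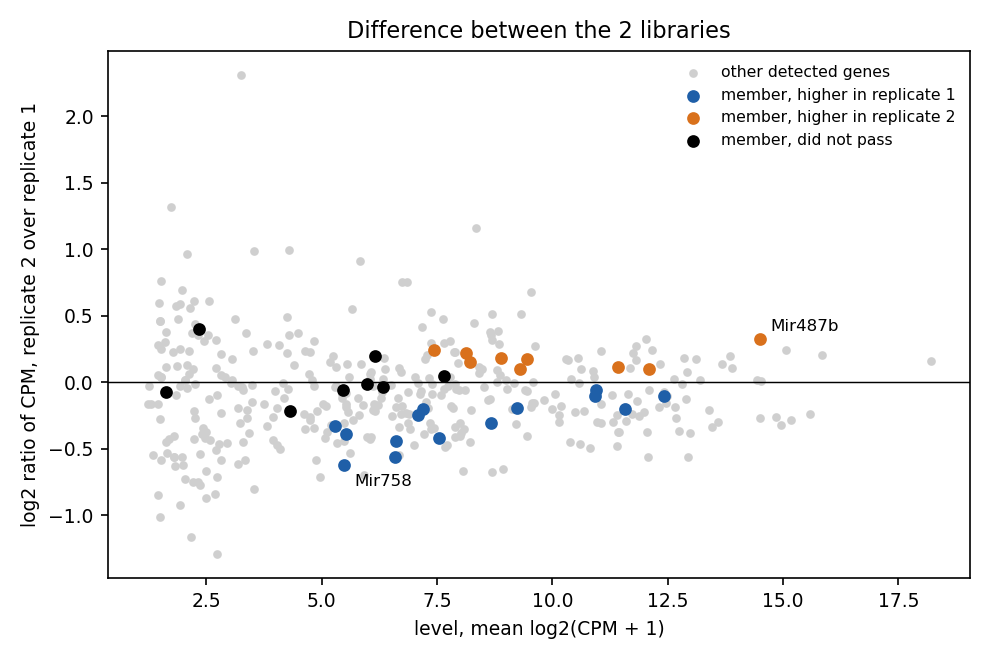
The log2 ratio of CPM, replicate 2 over replicate 1, against the mean level on the log2(CPM + 1) scale for the 399 detected genes; members of the cluster are coloured by the direction in which they passed Fisher's exact test, or black where they did not pass. The members lie between -0.62 (Mir758) and 0.40 and within the cloud of the other genes.

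The cluster held more counts than the other miRNA genes of the region. These were taken as the 19 plus-strand miRNA genes of the deposited tables from the start of Meg3 up to the cluster, of which 14 were detected. Genes that the tables do not hold are missing from this set too, and how many there are was not tested. They held 1.02% ± 0.0501 of the miRNA counts (SD, n = 2), against 4.76% ± 0.325 for the cluster and 2.44% ± 0.0399 for the cluster without Mir487b. The 2 sets had nearly the same median over all their genes, 7.42 and 7.32 on the log2(CPM + 1) scale, and the detected genes of the other set had the higher median, 8.64 against 7.55. The cluster thus had the larger sum but not the larger median. Mir127, which acts on the imprinted gene Rtl1, led the other set at 3249 and 3930 CPM, 35.2% of that set's mean CPM, where Mir487b made up 48.8% of the cluster's.

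The second imprinted miRNA cluster set beside it lies in Sfmbt2, a gene read from the paternal chromosome. Of 107 miRNA genes inside Sfmbt2 on its strand, 10 were detected, with 0.337% ± 0.0328 of the counts (SD, n = 2). On the total-count scale all 10 were lower in replicate 2 (median log2 ratio -0.28), as were 248 of all 399 detected genes. The log2 ratio of Mir467e was only -0.063, smaller in size than the upward shifts of 0.08 with TMM and 0.11 with median-of-ratios factors. The hairpins inside Sfmbt2 are repeats of each other, and 105 of 107 share 20 nt or more with another, against 4 of 34 in the Mir379 to Mir410 cluster. Reads that fit several places are therefore missing in Sfmbt2 to an extent that was not tested. No difference between gene groups was tested, since 1 group of 2 libraries leaves no samples to compare.

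**Figure D4:**
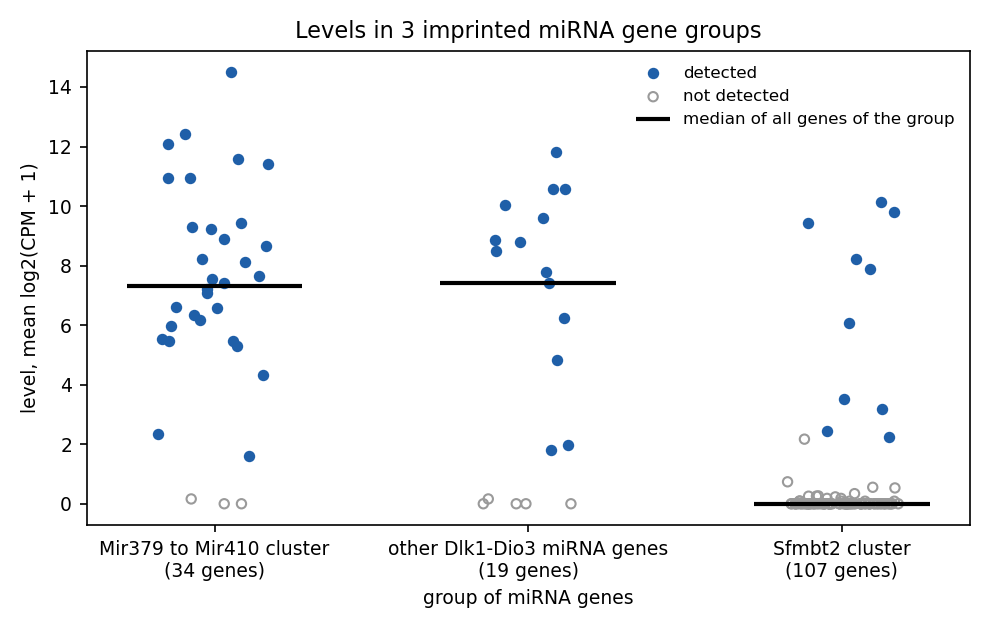
Levels on the log2(CPM + 1) scale of the 34 genes of the cluster, the 19 other plus-strand miRNA genes of the Dlk1-Dio3 region and the 107 miRNA genes inside Sfmbt2, as filled circles where detected and open circles where not, with a line at the median of all genes of each group. The medians are 7.32, 7.42 and 0.

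The libraries held 18598385 and 20638071 reads, of which 43.3% and 42.2% are listed as mapping to several places. The tissue label was checked against miRNAs of forebrain neurons and progenitors. Of 11 listed, 10 were in the tables and 9 were detected, with summed levels of 14889 and 13840 CPM, led by Mir137 at 7955 and 7274 CPM. Mir9-2 of the same list had only 3.95 and 6.04 CPM, and Mir9-3 had 634 and 556 CPM. The 3 copies of Mir124a, the miRNA that defines neurons, had only 0.424 to 2.54 CPM. These copies are known to give the same mature miRNA, and how many of their reads fit several places was not tested. Endothelial Mir126a was also high at 22103 and 22365 CPM, while muscle markers summed to 19.2 and 13.6 CPM with 3 of 4 at 0 counts, and hepatocyte Mir122 stood at 10.3 and 10.2 CPM. The 3 muscle genes at 0 counts, Mir133a-1, Mir133a-2 and Mir1a-1, are numbered copies like those of Mir124a. How many of their reads fit several places was not tested, so these zeros do not show absence. The smooth muscle and stromal pair summed to 3480 and 3901 CPM, the erythroid pair to 400.0 and 537 CPM, the immune list to 113 and 126 CPM with 2 of 3 in the tables, and the pluripotency pair to 184 and 145 CPM with Mir367 at 0 counts. In bulk tissue, fewer cells of a type and less RNA per cell cannot be told apart, and the part of each cell type in the cluster's counts was not tested.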

How the data were processed

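Small RNA was sequenced from 2 forebrain libraries that the labels put in 1 group. The values are whole-number read counts that the authors deposited in 1 table for each library. Per the files deposited with the tables, they derive from 1 alignment per library on mm10 with GENCODE M4. Aligner and counter were not given in the sources used here. The tables also hold 4 totals each of reads that name no gene. These were left out of library sizes and tests, and reads that fit several places are among them, so hairpins with close copies can lose counts. Of the 3 count columns, the one for the gene's own strand was used.

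Positions, host genes and hairpins came from GENCODE M21, also on mm10, and 1894 of 1973 IDs matched. Mature sequences came from RefSeq. CPM used the total of all miRNA counts, and log2 levels a pseudocount of 1. Detection required 10 counts in each library. Fisher's exact test (scipy 1.17.1) was adjusted by Benjamini-Hochberg over all genes with a count, with a threshold of 0.05. It was tried on simulated counts that held counting error only, with totals set from the unchanged genes. That setting cannot show its error rate here, where the libraries also vary beyond counting error. edgeR 4.0.16 gave TMM and median-of-ratios factors and the common dispersion. Without replicates of a second group no edgeR test was possible.

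The members were set by position, as given at the start, but they and all lists were chosen with earlier results of these data known. Values are given in full for the 12 highest members, those that passed with at least a 1.5-fold difference, the 3 lowest detected and those with at most 3 counts. Members with a known neuronal role or a related sequence were added. Alternatives covered scaling, count minimums, pseudocount, strand, shared hairpins and single libraries. Without molecular identifiers, intervals cover counting error alone.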

Additional observations from a re-analysis of the deposited data

Results flagged for a closer look

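Counts on the opposite strand of 4 minus-strand gene models inside the cluster's window were far above what 3 counts are worth (0.424 and 0.378 CPM). No member's level or test above uses that column. The opposite strand of Gm24321 held 3613 CPM in replicate 1 and 3752 CPM in replicate 2 (3682 ± 98.5, SD, n = 2), over the same library totals, at the position of Mir409. That of Gm25252 held 2180 and 2320 CPM (2250 ± 99.3) at the position of Mir376a. The opposite strand of Gm25750 held 588 and 740 CPM (664 ± 107) at the position of Mir380, and that of Mir299b held 496 and 407 CPM (451 ± 62.6) at the position of Mir299a. On their own strand the first 3 models had no counts and Mir299b had 7 and 5. Set among the members, the value at Gm24321 would rank after that of Mir369, and the value at Gm25252 after that of Mir382. Together the 4 positions held 6877 and 7219 CPM, which is 15.2% and 14.5% of the counts of the 34 members. The plus-strand genes at these positions, and Mir376b, are among the 39 that GENCODE M21 places in the window and were not analysed here as genes.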

How the results depend on the processing

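Of the recomputed summary values, 34 stayed within their error or within 1.5 times the count, and 14 moved. The 34 include the single-library values of the cluster's share and of Mir487b's share. Their limit was the SD of the 2 libraries, which neither library can pass, so these values were bound to stay and show no robustness. The same holds for the number detected and for Mir487b's share when either strand was counted, since no member had opposite-strand counts. The other values from either strand could change only through the library totals. The share of the cluster, 4.76% of miRNA counts, was 6.82% of totals without Mir99a and 1.86% without the 4 hairpins that share sequence, which removes Mir487b itself, so that its share of the cluster has no value there. It ranged from 4.53% to 4.99% over single libraries. The ratio of the summed CPM, 1.10, became 1.16 under TMM and also when Mir99a was left out of the totals, 1.19 under median-of-ratios factors and 0.977 without Mir487b. Without Mir487b, in settings chosen after seeing the data, it was 1.03 under TMM, 1.05 under median-of-ratios factors and 1.03 when Mir99a was also left out of the totals. Members called higher in replicate 1 fell from 14 to 9 with TMM and to 8 with median-of-ratios factors, and totals without Mir99a gave 10 in each direction. The shares of all tested genes that passed in these settings were not counted. The calls that TMM lost were those of Mir379, Mir381, Mir411, Mir539 and Mir667. The median log2 ratio of the detected members changed sign, from -0.059 to 0.051 under median-of-ratios factors, 0.020 under TMM and 0.010 when the totals omitted Mir99a. The median level of 7.32 was 7.55 over detected members and ranged from 7.22 to 7.31 over single libraries. Between 29 and 31 of the 34 members were detected over the count minimums, strand settings and single libraries tried. Leaving out the 4 hairpins with shared sequence, all of them detected, left 27 detected of 30 genes. The share of Mir487b in the cluster ranged from 45.5% to 51.7% over single libraries. No paired analysis was possible because the libraries form 1 group. The causes of the changes with scaling were not tested. Error estimates rest on 2 libraries.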
